A study of Mus musculus with 33 samples.

Results

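Imprinted growth genes are expressed mainly from the allele of 1 parent, and many of them regulate fetal and placental growth. A set of 10 such genes was followed through the differentiation of mouse embryonic stem cells towards tendon and fibrocartilage: H19, Igf2, Dlk1, Meg3, Rian, Peg3, Mest, Cdkn1c, Plagl1 and Grb10. They were taken by symbol from the table of 17120 genes, in which 7 of the 10 had a row. Dlk1, Meg3 and Rian, which lie together in another imprinted domain, were not analysed here.

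The cells carried the ScxGFP reporter, in which green fluorescent protein marks Scx, a tendon transcription factor. PM libraries came from paraxial mesoderm in embryoid bodies, the common starting cells, and all other libraries came from monolayers given TGFβ1, the smoothened agonist SAG and FGF2. The monolayers were also given 1 of 2 retinoids: CD1530, which activates the receptor RARγ, or AGN 193109 (AGN), which acts on retinoic acid receptors as an inverse agonist. Before this induction the study's protocol gave the BMP inhibitor LDN, and then the Wnt agonist CHIR with it. In its optimized protocol AGN 193109 was also given during mesoderm specification, so before either retinoid of the induction. The sample titles do not say whether the cells of these libraries had that step. Monolayers were collected at D6.25 and D6.75, then at D7.5 and D8.5, and last at D10, in days from the start of embryoid body culture, so each of the 11 groups had 3 libraries. The study used several ScxGFP lines, and the labels do not name the line behind each library. PM differs from the other groups in culture form as well as in time, and the effects of the 2 cannot be told apart. Counts summed to between 17116084 and 38120841 per library, with all but AGN D8.5 replicate 1 at or below 22775275. Levels are CPM, each gene's share of the library's TMM-scaled total in the usual counts-per-M unit, and calls are at an adjusted p under 0.05 from edgeR's quasi-likelihood test over all genes. These are bulk cultures, in which fewer cells of a type and less RNA per cell cannot be told apart.

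Igf2 encodes a fetal growth factor expressed from the paternal allele. H19, expressed from the maternal allele of the same domain, is a non-coding RNA. Grb10 and Cdkn1c restrain growth, Grb10 as an adaptor that dampens insulin and IGF receptor signalling and Cdkn1c as an inhibitor of cyclin-dependent kinases. Plagl1 and Peg3 encode zinc finger proteins, and Mest a protein of the α/β-hydrolase fold. In the counts the alleles were not separated, so each value is the sum over both.

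On GRCm38, H19 is at chr7:142575529-142578143 and Igf2 at chr7:142650766-142666816, with 72.6 kb between them. Cdkn1c is on the same chromosome at chr7:143458339-143461050, and Peg3 is at chr7:6703892-6730431. All 4 are on the minus strand. Mest is at chr6:30723547-30748465 and Plagl1 at chr10:13060504-13131694 on the plus strand, and Grb10 is at chr11:11930508-12038683 on the minus strand. Exons of Igf2 overlap those of Igf2os, and exons of Mest overlap those of Copg2, both on the opposite strand. The strand setting of the counting was not given in the sources used here, so reads in these overlaps could belong to either gene.

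Members H19, Igf2 and Mest also host microRNAs, shown here as further products of these loci. The mature sequences below are from RefSeq (GRCm38.p6), with bases 2 to 8, the seed that pairs with targets, in capitals. No pair of the 6 has the same seed, and microRNA levels were not measured.
miR-675-5p: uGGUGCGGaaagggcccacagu
miR-675-3p: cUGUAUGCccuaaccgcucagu
miR-483-5p: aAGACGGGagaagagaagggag
miR-483-3p: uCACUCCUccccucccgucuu
miR-335-5p: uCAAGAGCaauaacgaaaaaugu
miR-335-3p: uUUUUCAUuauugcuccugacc

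The sequence before the transcription start was read for 11 starts of 5 members from RefSeq (GRCm38.p6), 250 bases each. The hexamer TGCCGC, which the imprint-protecting protein ZFP57 binds when methylated, was searched on both strands. It was found in 3 of the 11 windows, in 2 of the 5 genes (Mest and Plagl1), and in 8.68% of all 32851 windows of this length. Of the 3, 2 are Mest windows that overlap over nearly all their bases and hold the same 2 matches, so 1 sequence stands behind both. The retinoid half-site AGGTCA was in 1 member window, an Igf2 start, and in 14.0% of all windows. The YY1 motif AAGATGGCG was in no member window and in 0.606% of all. A match describes letters and not binding. A Mest window with 2 matches and a Grb10 window with none are shown to set the 2 kinds side by side, with matches to TGCCGC on either strand in capitals. The Mest window (chr6:30737800-30738049, plus strand) and the Grb10 window (chr11:12037421-12037670, minus strand) hold no base of an annotated exon of their gene. The Mest window had 14 CG dinucleotides and the Grb10 window 40, against a median of 6 over all windows.
Mest: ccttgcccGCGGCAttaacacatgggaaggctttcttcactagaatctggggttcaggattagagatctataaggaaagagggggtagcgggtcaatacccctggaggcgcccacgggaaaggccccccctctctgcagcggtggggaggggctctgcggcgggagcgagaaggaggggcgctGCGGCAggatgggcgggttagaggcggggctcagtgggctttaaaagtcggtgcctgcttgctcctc
Grb10: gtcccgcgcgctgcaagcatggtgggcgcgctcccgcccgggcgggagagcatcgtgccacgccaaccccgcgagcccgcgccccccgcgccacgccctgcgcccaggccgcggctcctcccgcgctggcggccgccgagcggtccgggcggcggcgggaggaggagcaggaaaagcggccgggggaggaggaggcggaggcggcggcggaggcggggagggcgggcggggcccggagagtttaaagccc

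From PM to D10 all 7 members rose in both conditions. Of all genes tested, 83.2% passed in CD1530 (43.3% up, 39.9% down) and 82.0% passed in AGN (41.6% up, 40.4% down), so a call alone says little here and the size carries the description. Igf2 changed most. It was at 7.13, 4.77 and 6.84 CPM in PM, at 659.6, 670.0 and 692 CPM in CD1530 D10 and at 1615, 1439 and 1469.8 CPM in AGN D10, and the 3 groups did not overlap. The log2 fold change was 6.76 ± 0.20 (SE) in CD1530 (edgeR adjusted p = 4.06e-20) and 7.92 ± 0.20 in AGN (adjusted p = 2.15e-21), larger in absolute value than that of 99.2% and 99.7% of genes. The change in the other 6 members was between 2.03 (Cdkn1c in CD1530) and 4.17 (Plagl1 in AGN) on the log2 scale. Both conditions are compared with the same PM libraries. Cell type markers moved over the same interval. The 5 pluripotency markers summed to 1953 to 1979 CPM in PM and to at most 296 CPM at D10. The 7 paraxial mesoderm markers summed to only 128 to 135 CPM in PM, and to between 97.6 and 111 CPM at D10. Single genes of that list moved apart. T was at 79 CPM in PM and at 0.503 (CD1530) and 27.1 CPM (AGN) at D10, and Meox1 at 5.91, 73.7 and 65.4 CPM. The 6 tendon markers went from 1467 to 1885 CPM in PM to at least 17189 CPM at D10, and the 6 cartilage markers from 20.5 to 23.2 CPM in PM to at least 239 CPM. Their part in the members' rise was not tested.

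**Figure D1:**
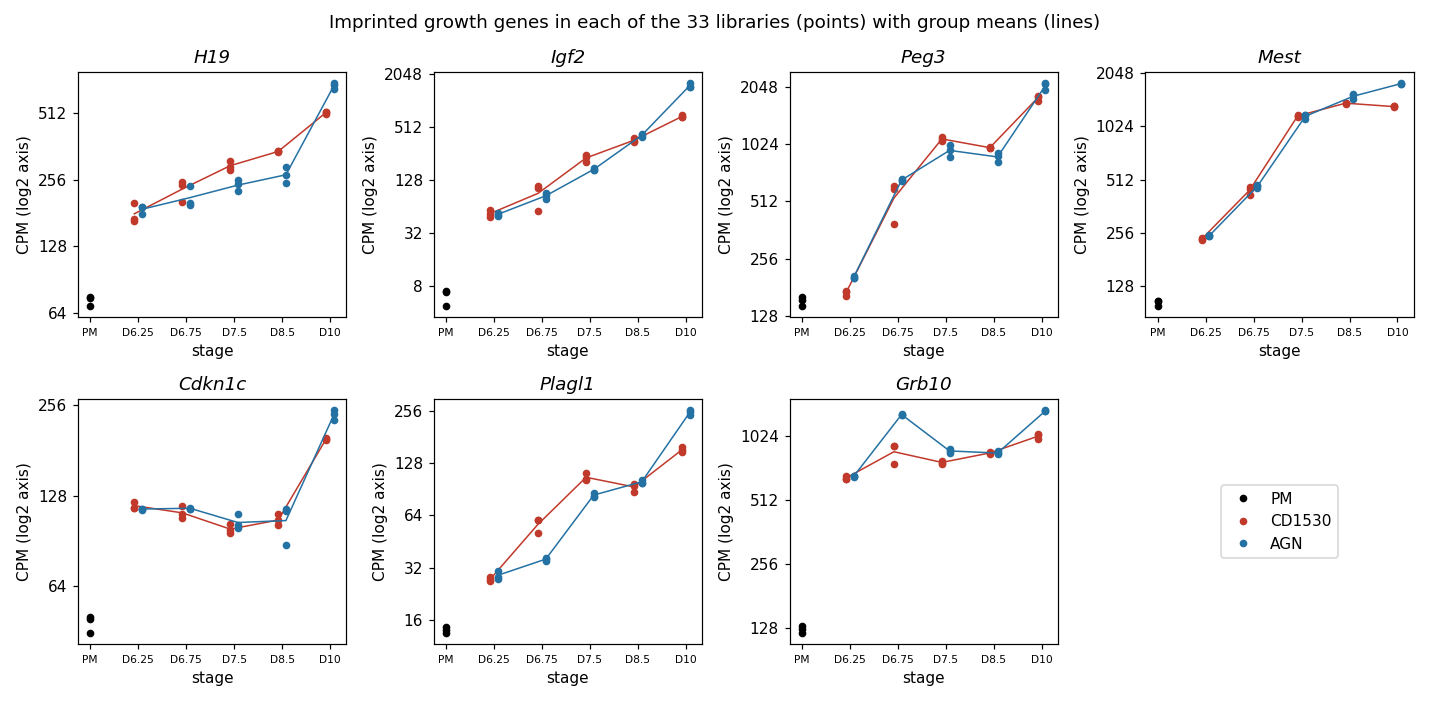
CPM (log2 axis) of the 7 members in each library at PM and at the 5 time points, with CD1530 in red, AGN in blue and PM in black; lines join group means. Igf2 rises from 4.77 to 7.13 CPM in PM to over 659 CPM at D10. CD1530 D6.75 replicate 1 lies apart from its group for Igf2, Peg3, Grb10 and Plagl1.

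Members took different times to rise. At D6.25, 0.25 days into induction, Grb10 had already gone from 130.1, 121 and 126 CPM in PM to 642, 645 and 667 CPM in CD1530 and 664, 659 and 667 CPM in AGN. Its log2 fold change was 2.38 ± 0.05 in CD1530 (adjusted p = 3.06e-35) and 2.40 ± 0.05 in AGN (adjusted p = 2.34e-35). Igf2 rose by 3.10 ± 0.21 and 3.07 ± 0.21 at the same step. H19, Mest, Cdkn1c and Plagl1 rose by between 0.97 (Plagl1 in CD1530) and 1.36 (H19 in AGN). Peg3 passed in AGN (0.42 ± 0.10, adjusted p = 0.00123) and did not pass in CD1530 (0.14 ± 0.11, adjusted p = 0.233). Over all genes this step gave calls for 67.8% in CD1530 (34.5% up, 33.3% down) and for 68.1% in AGN (35.0% up, 33.1% down).

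Peg3 rose mainly after D6.25, and Mest and Igf2 went on rising. Between D6.25 and D8.5 Mest gained 2.54 ± 0.04 (SE, log2) in CD1530 and 2.61 ± 0.04 in AGN, and Peg3 gained 2.54 ± 0.11 and 2.11 ± 0.10. Igf2 gained 2.76 ± 0.15 and 2.98 ± 0.15, and Plagl1 1.77 ± 0.06 and 1.79 ± 0.06, while H19 and Grb10 rose by between 0.37 and 0.93. Cdkn1c did not rise over this interval. It fell by 0.16 in CD1530 (adjusted p = 0.036) and differed by -0.14 ± 0.06 in AGN (adjusted p = 0.0674), and its call in CD1530 was lost when any of 6 single libraries was left out. Calls covered 62.9% of all genes in CD1530 (33.4% up, 29.6% down) and 60.9% in AGN (30.7% up, 30.2% down). Scaling by library size alone lowered the share of higher genes among those called in AGN from 50.3% to 38.2%.

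From D8.5 to D10 the members rose in both conditions except Mest in CD1530, which was at 1368, 1392 and 1389 CPM and then 1327, 1315 and 1328 CPM (-0.06 ± 0.03, adjusted p = 0.0918). Cdkn1c, nearly level since D6.25, rose by 0.89 ± 0.06 in CD1530 (adjusted p = 1.62e-13) and 1.18 ± 0.06 in AGN (adjusted p = 1.11e-16). Over all genes, 57.3% passed in CD1530 (27.4% up, 29.9% down) and 59.4% in AGN (29.9% up, 29.5% down). Scaling by library size alone moved the higher share from 47.8% to 35.6% in CD1530 and from 50.4% to 38.7% in AGN, and left every member's direction at this step as given, with Mest in CD1530 then called at -0.16 (adjusted p = 4.47e-05).

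The conditions were then compared at each time point, to ask when agonist and inverse agonist cultures separate. At D6.25 no member of 7 was called, against 1.92% of genes (1.23% higher in CD1530, 0.695% lower). Peg3 had the largest difference, -0.27 ± 0.10 (SE, log2, adjusted p = 0.257), with 163, 172 and 171 CPM in CD1530 and 201, 202 and 208 CPM in AGN. The libraries did not overlap, and the call appeared when CD1530 D6.75 replicate 1 was left out of the shared estimate of spread (adjusted p = 0.000796).

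At D6.75 Plagl1 was higher and Grb10 lower in CD1530 than in AGN, while both genes had risen since D6.25 in both conditions. Plagl1 was at 50.5, 60.3 and 60.2 CPM in CD1530 and at 36.6, 34.9 and 36 CPM in AGN (0.67 ± 0.06, adjusted p = 1.37e-12). Grb10 was at 755, 921 and 923 CPM in CD1530 and at 1292, 1287 and 1312 CPM in AGN (-0.58 ± 0.04, adjusted p = 2.19e-14). In AGN these were the highest Grb10 levels before D10, and it stood at 878, 892 and 852 CPM by D7.5. Peg3 was the third member called (-0.32 ± 0.10, adjusted p = 0.0287), at 387, 596 and 616 CPM in CD1530 and 657, 661 and 673 CPM in AGN. CD1530 D6.75 replicate 1 was low for Peg3, Grb10, Igf2 and Plagl1, and over all genes it correlated least with its replicates among the libraries (r = 0.9927). Without it Plagl1 differed by 0.75 (adjusted p = 5.57e-20), Grb10 by -0.49 (adjusted p = 2.35e-23), Peg3 by -0.13 (adjusted p = 0.0765) and Igf2 by 0.34 (adjusted p = 0.00675), so Peg3 lost its call without that library and Igf2 gained one. The Peg3 call was also lost without any 1 of the 3 AGN D6.75 libraries (adjusted p of up to 0.0759) and with the compared groups only (adjusted p = 0.301). Of all genes 18.0% were called, 7.94% higher and 10.0% lower. The 5 endothelial markers were all higher in CD1530 at this time, with summed levels of 317 to 372 CPM against 235 to 247 CPM. Of 6 cartilage markers 4 were lower (489 to 525 against 658 to 698 CPM). The part of these markers in the members' differences was not tested.

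At D7.5 4 of 7 members were called, against 26.9% of genes (15.2% higher, 11.8% lower). H19 was at 293, 312 and 283 CPM in CD1530 and 254, 244 and 228 CPM in AGN (0.29 ± 0.08, adjusted p = 0.00634). Igf2 was at 232, 245 and 207 CPM against 165, 177 and 165 CPM (0.43 ± 0.14, adjusted p = 0.0213), a call lost without any of 4 single libraries. Plagl1 was also higher (0.34 ± 0.05, adjusted p = 6.91e-07) and Grb10 lower (-0.18 ± 0.04, adjusted p = 0.000967). H19 and Igf2, which are expressed from opposite parental alleles, were both higher in CD1530 at this time. Of the markers, 4 of 5 endothelial (377 to 396 against 229.7 to 256 CPM) and 3 of 4 neural (63.1 to 65.8 against 45.5 to 48.5 CPM) were higher in CD1530, and 4 of 6 cartilage markers were lower (539 to 562 against 759.8 to 797 CPM). Their part in the members' differences was not tested.

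At D8.5 2 of 7 members were called, against 40.0% of genes (20.4% higher, 19.6% lower). H19 stayed higher in CD1530, at 346, 340.4 and 343 CPM against 248, 268 and 292 CPM (0.35 ± 0.08, adjusted p = 0.000729). Mest was lower (-0.13 ± 0.03, adjusted p = 0.00108). Igf2 (-0.19 ± 0.13, adjusted p = 0.288) was on the other side of 0 from H19. With CD1530 D6.75 replicate 1 left out, 5 members were called, adding Igf2, Peg3 and Plagl1. All 6 cartilage markers were lower in CD1530 at D8.5 (416 to 436 against 1166 to 1208 CPM) and all 4 neural markers higher (84.1 to 91.4 against 33.5 to 38.4 CPM), and of 5 endothelial markers 3 were higher and 1 lower. Their part was not tested.

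At D10 6 of 7 members were lower in CD1530 than in AGN. H19 had been called higher at D8.5, while Igf2 and Plagl1, called higher at D7.5, were already at -0.19 and -0.10 (log2, not called) at D8.5. Of all genes 46.6% were called, 22.7% higher and 24.0% lower. The members' share of lower calls was above the latter. They were chosen with earlier results of these data known, so this describes them and does not test for an excess. The median log2 fold change was -0.02 over all genes. Igf2 was at 659.6, 670.0 and 692 CPM in CD1530 and 1615, 1439 and 1469.8 CPM in AGN, 2.24-fold lower (-1.16 ± 0.13, adjusted p = 7.5e-08). Plagl1 was at 152, 149.7 and 158 CPM against 253, 259 and 242 CPM (-0.71 ± 0.05, adjusted p = 3.24e-16). No library of either gene overlapped the other condition.

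The other called members differed less at D10. Mest was at 1327, 1315 and 1328 CPM in CD1530 and 1776, 1797 and 1781 CPM in AGN (-0.43 ± 0.03, adjusted p = 8.72e-15). Grb10 was at 1049, 991 and 1035 CPM against 1347, 1359 and 1347 CPM (-0.40 ± 0.04, adjusted p = 1.25e-10). H19 was at 508, 517 and 519 CPM against 698, 682 and 655 CPM (-0.40 ± 0.08, adjusted p = 0.000117). Igf2 and Grb10, a growth factor and an adaptor that dampens its signalling, were thus lower in the same cultures. Cdkn1c was at 196, 199 and 198 CPM against 239, 228 and 246 CPM (-0.27 ± 0.06, adjusted p = 0.000619). Peg3, at 1828, 1736 and 1842 CPM against 1988, 2136 and 2156 CPM, did not overlap but missed the threshold (-0.22 ± 0.10, adjusted p = 0.0762). It was called in 4 of 40 alternatives. These were DESeq2 (adjusted p = 0.0216) and edgeR with the compared groups only (adjusted p = 6.95e-07). The others were edgeR without CD1530 D6.75 replicate 1 (adjusted p = 0.000159) and without replicate 3 of that group (adjusted p = 0.0499).

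Markers of other cell types differed between these D10 cultures. All 6 cartilage markers were lower in CD1530, with summed levels of 239 to 244 CPM against 3145 to 3281 CPM in AGN. Of 6 tendon markers 1 was higher and 3 were lower, with sums of 17189 to 17858 CPM and 19649 to 20958 CPM, and Scx itself was at 858 and 1223 CPM on average. All 4 neural markers were higher in CD1530 (63.7 to 67 against 13.1 to 14.6 CPM), and Neurog2 was at 0 in AGN. The pluripotency markers summed to 148 to 154 CPM in CD1530 and 279.9 to 296 CPM in AGN, with 2 of 5 higher and 2 lower. Pou5f1 (26.6 against 149 CPM) and Klf4 (32.6 against 66.1 CPM) were lower in CD1530, and Nanog (46.1 against 35.2 CPM) and Esrrb (37.9 against 29.9 CPM) were higher. The 3 trophoblast markers in the table were also higher in CD1530 (42.1 to 46.1 against 11.5 to 11.8 CPM), 2 of 3 muscle markers were lower, with Myod1 at 0 in CD1530, and the endothelial (2 higher, 2 lower), endoderm (2 higher, 1 lower) and paraxial mesoderm (4 higher, 1 lower) markers went both ways. The part of these differences in the members' results was not tested.

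**Figure D2:**
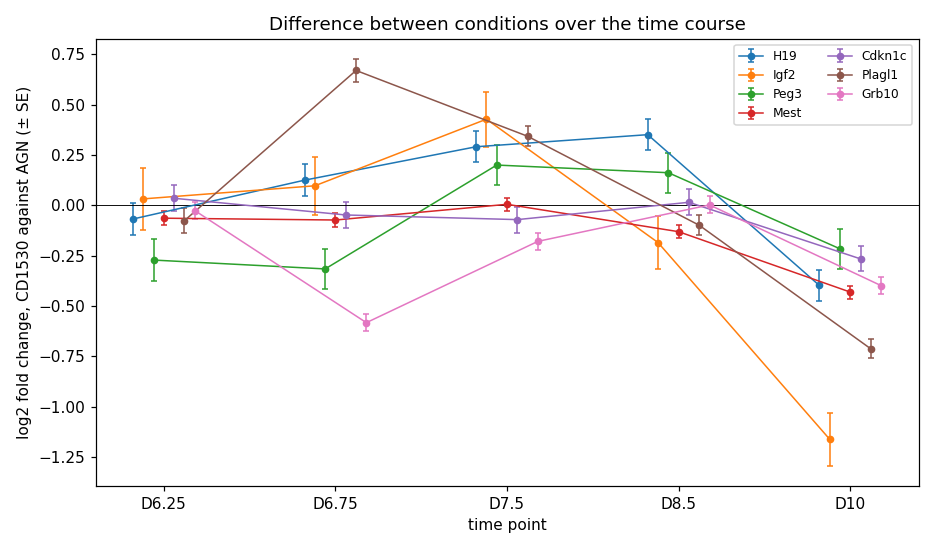
Log2 fold change of CD1530 against AGN (± SE, 3 libraries a group) at the 5 time points for the 7 members, with 0 as a line. Plagl1 is at 0.67 and Grb10 at -0.58 at D6.75, and at D10 every member lies below 0, Igf2 lowest at -1.16.

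Whether the difference between conditions changed over time was tested directly. The D8.5 to D10 step was smaller in CD1530 for all 7 members, and each was called. Of all genes 26.8% were called in this test in either direction, and 47.5% of those calls had the larger step in CD1530. The difference of the step was -0.98 ± 0.19 (SE, log2) for Igf2 (adjusted p = 0.000304), -0.75 ± 0.11 for H19 (adjusted p = 9.49e-06) and -0.61 ± 0.07 for Plagl1 (adjusted p = 3.92e-09). It was -0.40 ± 0.06 for Grb10, -0.38 ± 0.14 for Peg3 (adjusted p = 0.0472), -0.30 ± 0.05 for Mest and -0.28 ± 0.09 for Cdkn1c (adjusted p = 0.0186). Without AGN D8.5 replicate 1, in which Cdkn1c was at 87.7 CPM against 114 and 116 CPM, the value for Cdkn1c was -0.15 (adjusted p = 0.0867). Its call was also lost without CD1530 D8.5 replicate 2 (-0.25, adjusted p = 0.0554) and with the compared groups only (-0.25, adjusted p = 0.203). The Peg3 value was not called in 25 of the 33 fits that left out 1 library, with an adjusted p of up to 0.109. Over all 5 time points the difference was uneven for 7 of 7 members, against 48.8% of genes, and ranged most for Igf2 (a spread of 1.59 on the log2 scale) and Plagl1 (1.38). The Cdkn1c call in this test (adjusted p = 0.0339) was lost in 7 of the 33 fits that left out 1 library (adjusted p of up to 0.104) and with scaling by library size alone (adjusted p = 0.0642).

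The ratio of Igf2 to H19 counts needs no scaling between libraries. It was 0.0954, 0.0632 and 0.099 in PM, and 0.0859 ± 0.02 (SD, n = 3) on average. By D7.5 it was 0.769 ± 0.033 in CD1530 and 0.7 ± 0.043 in AGN, with ranges of 0.731 to 0.792 and 0.65 to 0.725. At D8.5 it was 1.06 ± 0.073 in CD1530 and 1.53 ± 0.12 in AGN, and at D10 1.31 ± 0.02 and 2.22 ± 0.1, without overlap at either time. H19 therefore held more counts than Igf2 up to D7.5, and Igf2 on average more than H19 from D8.5. The exons of Igf2 are longer (5723 against 2460 bases). Per kilobase of exon the D10 mean of H19 stayed above that of Igf2 in both conditions, with overlapping libraries in AGN. With 3 libraries against 3 the smallest p an exact two-sided permutation test allows is 0.1, so none is given.

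**Figure D3:**
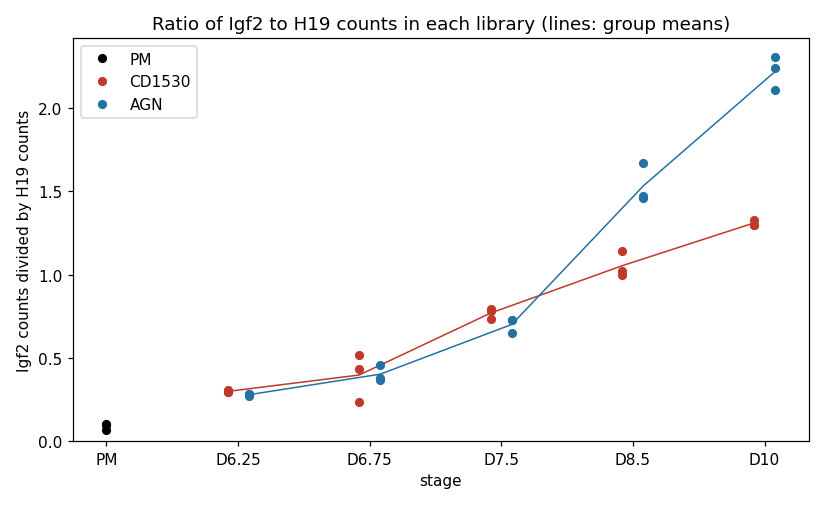
Igf2 counts divided by H19 counts in each library at PM and the 5 time points, with CD1530 in red, AGN in blue and lines through group means. The ratio is below 0.1 in PM and reaches 1.3 to 1.33 in CD1530 D10 and 2.11 to 2.31 in AGN D10.

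Levels of different genes were compared per kilobase of exon, as CPM per kb. In PM the order was H19 (29.7), Mest (26.4), Cdkn1c (23.8), Grb10 (13.8), Peg3 (11.5), Plagl1 (1.78) and Igf2 (1.09). In AGN D10 Mest was highest (452), followed by H19 (276) and Igf2 (263), whose libraries overlapped, Peg3 (157) and Grb10 (149), which overlapped too, Cdkn1c (117) and Plagl1 (32.1). In CD1530 D10 Mest (335) was again highest and Igf2 (118) came after H19 (209) and Peg3 (135). Igf2 had thus moved from last place.

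Over the 11 group means of log2(CPM + 1), the members' patterns correlated with each other at r between 0.625 (Mest and Cdkn1c) and 0.973 (H19 and Igf2), as a description over groups that share the same rise from PM. The 3 genes most like Igf2 were Igf2os (r = 0.9957), Adamts10 (0.995) and Septin5 (0.9949). Igf2os overlaps Igf2, so part of its counts may be reads of Igf2. The nearest to H19 was Zfp260 (0.9947), followed by App and Dpy19l4. Mest was most like Sema3a, Septin6 and Fat4, and Peg3 most like Mras, Loxl3 and Angptl1. Cdkn1c was most like Arfgap3, Btg1 and Ube2e2, Plagl1 like Megf6, Lama4 and Zbed3, and Grb10 like Egflam, Gnao1 and Fam210b. With a Pearson correlation over the 33 libraries 14 of these 21 genes stayed among the closest 3, and with a Spearman correlation over groups 2 of 21 did.

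Other imprinted genes, grouped by the parental allele listed for each, went both ways at D10. Whether they were expressed from 1 allele in these cultures was not measured. Of 21 paternally expressed genes 8 were higher and 5 lower in CD1530, and of 22 maternally expressed genes 6 were higher and 7 lower, with medians of 0.18 and 0.04 on the log2 scale. The shares called were 61.9% and 59.1%, beside 46.6% of all genes, whose median was -0.02. Peg10, a retrotransposon-derived gene, was at 396 ± 9.2 CPM in CD1530 and 119 ± 3.5 CPM in AGN (SD; log2 fold change 1.74 ± 0.09, adjusted p = 3.52e-14). Asb4 (1.12 ± 0.08) and Slc38a4, an amino acid transporter (0.80 ± 0.05), were higher too. Nnat was lower (-1.44 ± 0.04, adjusted p = 1.01e-28), as were Zim1 (-0.84 ± 0.06) and Snrpn (-0.83 ± 0.07). Zim1 and Usp29, neighbours of Peg3 at 7.44 and 0.147 kb, were both lower in CD1530, Usp29 by -0.38 (adjusted p = 5.74e-05).

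**Figure D4:**
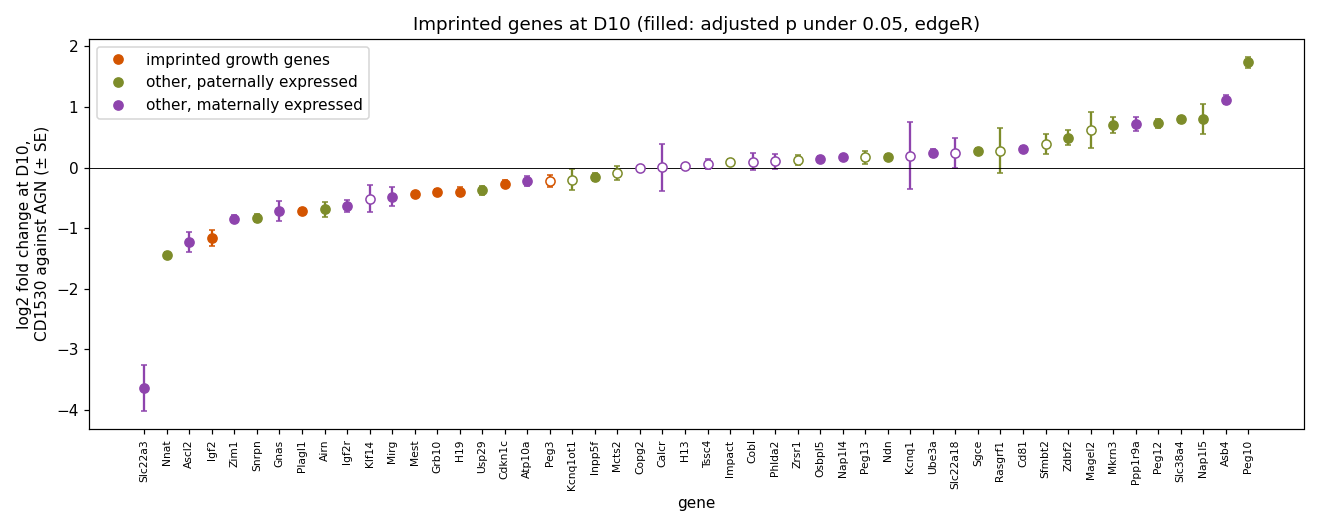
Log2 fold change of CD1530 against AGN at D10 (± SE) for the 7 members (orange) and 43 other imprinted genes, sorted by value; filled points passed the test. The members lie at or below -0.22, while the others run from below -3 (Slc22a3) to 1.74 (Peg10).

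Against PM, other imprinted genes also went both ways. In CD1530 D10 Zim1 rose by 6.38 ± 0.11, Osbpl5 by 2.61 ± 0.05 and Gnas by 2.38 ± 0.19 on the log2 scale. Cobl changed by -3.52 ± 0.10, Sfmbt2 by -3.49 ± 0.13 and Phlda2, which restrains placental growth, by -2.19 ± 0.10. In AGN D10 Zim1 (7.23 ± 0.11), Gnas (3.10 ± 0.19) and Nnat (2.90 ± 0.05) rose most, and Sfmbt2 (-3.88 ± 0.13), Cobl (-3.62 ± 0.10) and Phlda2 (-2.29 ± 0.10) fell most. Of the 21 paternally expressed genes 15 rose and 4 fell in CD1530, and 12 and 4 in AGN. Of the 22 maternally expressed genes 15 rose and 5 fell in CD1530, and 14 and 6 in AGN. Over all genes 43.3% rose and 39.9% fell in CD1530, and 41.6% and 40.4% in AGN. Of 14 listed imprinted genes within 1 Mb of a member 10 rose and 4 fell in CD1530, and 8 and 4 in AGN. Those that fell in CD1530 include Cobl, 198 kb from Grb10, and Phlda2, 40.5 kb from Cdkn1c, and those that rose include Osbpl5, 228 kb from Cdkn1c.

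Among 19 genes of the IGF pathway 5 were higher and 4 lower in CD1530 at D10, 47.4% called against 46.6% of all genes. Igf1, the other IGF ligand, was at 127 ± 3 CPM in CD1530 and 288 ± 4.2 CPM in AGN (-1.18 ± 0.06, adjusted p = 3.18e-21). Igf2r, which clears IGF2 and is itself imprinted, was at 798 ± 20 and 1240.1 ± 59 CPM (-0.64 ± 0.10, adjusted p = 7.77e-06). Both ligands and the clearance receptor were therefore lower in CD1530. Igfbp5, an IGF-binding protein, was higher, at 10936 ± 270 against 4066 ± 62 CPM (1.43 ± 0.09, adjusted p = 6.63e-13), and Igf1r was not called (0.07 ± 0.08, adjusted p = 0.467). Against PM 14 of the 19 rose in CD1530 and 16 in AGN, beside 43.3% and 41.6% of all genes.

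Of 13 genes that set, maintain or remove DNA methylation or imprints none was higher and 7 were lower in CD1530 at D10. Of all genes 22.7% were higher and 24.0% lower. Dnmt3b, a de novo DNA methyltransferase, was at 31.2 ± 1.3 CPM in CD1530 and 353 ± 4 CPM in AGN (-3.50 ± 0.05, adjusted p = 1.48e-40). Its cofactor Dnmt3l was at 32.4 ± 0.47 and 61.7 ± 1.9 CPM, and at 322 ± 6.3 CPM in PM. Genes that maintain methylation differed less between CD1530 and AGN at D10, with Dnmt1 at 243 ± 2 and 265 ± 3.8 CPM and Uhrf1 at 189.6 ± 4.5 and 186 ± 7.3 CPM. Of those that remove it, Tet1 was at 45.8 ± 3.2 and 63.5 ± 3.9 CPM and Tet2 at 49.7 ± 3.3 and 74.5 ± 7.9 CPM. Tet3 was at 94 ± 4.3 and 98.6 ± 6.2 CPM. Zfp57 was at 107 ± 8 CPM in PM, 35.9 ± 2.8 CPM in CD1530 D10 and 40.5 ± 5 CPM in AGN D10, and did not pass between conditions (-0.17 ± 0.08, adjusted p = 0.054). Of the 13, 9 fell from PM to D10 in CD1530 and 8 in AGN, beside 39.9% and 40.4% of all genes. DNA methylation was not measured.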

How the data were processed

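RNA-seq libraries of 33 mouse cultures (11 groups of 3) were analysed. The study's methods describe a NEBNext Ultra kit, alignment to GRCm38 with STAR, and gene counts by featureCounts; the deposited values are raw counts per gene, whole and not normalized, and strand and multimapping settings are not given in the sources used here. The groups come from the sample labels, and every column was matched to 1 sample. The labels count days from the start of induction, and 6 days were added to name the groups here. The members and gene lists were chosen with earlier results of these data known.

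Counts were fitted in edgeR 4.0.16 (R 4.3.3; limma 3.58.1) with TMM scaling, filterByExpr, 1 mean per group over all 33 libraries and robust quasi-likelihood F tests in 15 comparisons; p-values were adjusted by Benjamini-Hochberg over 17120 genes, of which the filter removed 0. SE is the fold change over the root of F. The fit was tested on simulated data. Positions and exon lengths are from GENCODE M21 (17117 IDs matched). Total counts were 17116084 to 38120841 a library, and each SE also reflects the spread between replicates. The methods call the libraries biological replicates.

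Replicate numbers showed no pairing of samples in a check over all genes. Same-numbered deviations correlated at -0.129 to 0.099, and in 0 of 13 comparisons were all pairs above 0.1. Genes of every level weigh alike in this check, so it can miss a shared line or batch. Replicates within a group correlated at 0.9927 to 0.9977, and none were identical. The pairs with CD1530 D6.75 replicate 1 were at 0.9927, and the next lowest, in AGN D8.5, was at 0.9964. A chi-square per gene for unequal counts was 20.3 and 21.5 in the pairs with that library and at most 4.76 in the others. That library thus stood apart over all genes, and it is part of the shared estimate of spread.

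The text names all members; other imprinted genes with a mean of at least 5 CPM and the 3 largest called changes each way, at D10 between conditions and against PM; and for likeness the 3 genes with the highest correlation and at least 10 CPM. Usp29, Slc22a3, and examples from the IGF and imprint lists were chosen after their values were seen. Alternatives were DESeq2 1.42.0, other scalings and filters, the compared groups alone, a replicate block, a minimum change, and leaving out each library.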

Additional observations from a re-analysis of the deposited data

Results flagged for a closer look

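For each of the 7 members the contrast of the conditions changed with time, by a test of the difference of differences in edgeR. For the D8.5 to D10 step the value in CD1530 minus that in AGN was, on the log2 scale, -0.976 for Igf2, -0.749 for H19, -0.614 for Plagl1, -0.401 for Grb10, -0.379 for Peg3, -0.301 for Mest and -0.281 for Cdkn1c. Over the 5 time points the difference between conditions ranged by 1.59 for Igf2, 1.383 for Plagl1, 0.749 for H19, 0.584 for Grb10, 0.516 for Peg3, 0.436 for Mest and 0.301 for Cdkn1c. The step is part of the 5 time points, so the values are not independent. Not all of these calls held when libraries were left out 1 at a time. In the step test Peg3 lost its call in 25 of 33 such fits and Cdkn1c in 2, and over the 5 time points Cdkn1c lost its call in 7. Cdkn1c also lost its call in the step test with the compared groups only (adjusted p = 0.203) and over the 5 time points with scaling by library size alone (adjusted p = 0.0642).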

How the results depend on the processing

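Of 82 member calls in the 15 comparisons, 76 held under all alternatives other than the minimum change, and of 23 differences not called 11 were called under at least 1. A replicate block changed no count of members called, for example 6 of 7 at D10 between conditions. Requiring a log2 fold change of at least 1 left 0 members at D6.75, 0 at D7.5, 0 at D8.5 and 1 at D10 between conditions, 4 for D8.5 against D6.25 and 0 for D10 against D8.5 in CD1530, and 0 and 2 in the step and 5-time tests. With the compared groups only, 1 member was called at D6.25 and 5 at D8.5. Leaving out 1 library gave 0 to 1 members at D6.25, 2 to 4 at D6.75, 3 to 5 at D7.5, 2 to 5 at D8.5 and 6 to 7 at D10. In the step test it gave 5 to 7, and over 5 times 6 to 7. CD1530 D6.75 replicate 1 alone gave the 1 at D6.25 and the 5 at D8.5; the cause was not tested.

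Only differences that had not been called reversed. Mest at D7.5 went to -0.008 with DESeq2, its size factors or library size alone, and to -0.005 with the compared groups only. Grb10 at D8.5 went to -0.01 with DESeq2 or its size factors and to -0.001 with the compared groups only. Leaving out 1 library gave -0.039 to 0.089 for Igf2 at D6.25, -0.057 to 0.34 for Igf2 at D6.75, -0.017 to 0.019 for Mest at D7.5, -0.114 to 0.092 for Cdkn1c at D8.5 and -0.009 to 0.021 for Grb10 at D8.5. Library size alone shifted the median of all genes by -0.112 and -0.149 at D10 against PM in CD1530 and AGN. Ratios of Dlk1 or Rian to Meg3 were not run.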
